A study of Rattus norvegicus with 12 samples.

Results

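Transcripts of 9 neuronal genes (Prph, Uchl1, Nefl, Nefm, Th, Dbh, Gap43, Stmn2 and Snap25) were followed in rat atrial tissue. They were taken as all probe sets that the array annotation assigns to 1 of these symbols alone, which gave 12 of the 31042 probe sets and 9 of the 14217 genes named by the array. Nefl, Gap43 and Stmn2 had 2 probe sets each and the other 6 genes had 1. Left and right atrial appendages were taken from male Sprague-Dawley rats of 225 to 275 g. The rats had lived for 28 days with either a sham operation or an aorto-caval shunt, which lets aortic blood run straight into the vena cava and so raises the volume the heart must pump. Sham and shunt were studied in each atrium, giving 4 groups of 3 Affymetrix arrays, each array made from a pool of 2 tissues. The labels name no other treatment or genotype, and their tissue entry lists atria and ventricles for every sample beside the left or right atrial source. Values are log2 RMA levels, on which a difference of 1 is 2-fold. A gene is said to have passed, or to have been called, where its adjusted p in a limma fit of all 31042 probe sets was under 0.05.

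The heart is innervated by sympathetic fibres whose cell bodies lie outside it and by small intrinsic ganglia in the epicardial fat around the atria and the great veins. A neuron keeps most of its messenger RNA in the cell body, so transcripts of neuronal genes in heart tissue are usually sought in those ganglia. Prph (peripherin), Nefl and Nefm (neurofilament light and medium chains) encode intermediate filaments of nerve cells, and Uchl1 (PGP9.5) is a deubiquitinating enzyme used as a general marker of neurons. Th (tyrosine hydroxylase) is the rate-limiting enzyme of catecholamine synthesis and Dbh (dopamine beta-hydroxylase) makes noradrenaline from dopamine. Gap43 and Stmn2 are proteins of growing axons, and Snap25 is a SNARE protein of the presynaptic membrane. In tissue RNA, fewer cells of a type and less RNA per cell cannot be told apart.

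The table of promoter sequences (RefSeq, build GRCr8) held 4 of the 9 genes. They are shown because Prph and Uchl1 were the members that rose after the shunt, and because Th and Dbh encode successive enzymes of catecholamine synthesis. Each run ends 1 base before the transcript start that the table uses, which lay inside the annotated span of each of these genes, and is written 5′ to 3′ on the gene's strand with matches to 3 searched motifs in capitals.
Prph, chr7:132097139-132097288, plus strand: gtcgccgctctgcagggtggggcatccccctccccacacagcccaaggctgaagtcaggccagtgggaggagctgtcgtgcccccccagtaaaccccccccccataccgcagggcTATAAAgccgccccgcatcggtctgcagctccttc
Uchl1, chr14:41849418-41849567, minus strand: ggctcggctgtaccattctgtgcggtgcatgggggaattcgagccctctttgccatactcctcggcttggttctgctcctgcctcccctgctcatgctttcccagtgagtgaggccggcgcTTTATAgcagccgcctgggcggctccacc
Th, chr1:207508219-207508468, minus strand: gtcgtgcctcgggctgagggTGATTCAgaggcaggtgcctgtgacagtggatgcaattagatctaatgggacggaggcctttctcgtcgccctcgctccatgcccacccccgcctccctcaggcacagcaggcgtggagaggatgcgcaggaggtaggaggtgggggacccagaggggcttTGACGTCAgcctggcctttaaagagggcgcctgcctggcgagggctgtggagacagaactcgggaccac
Dbh, chr3:30886178-30886327, plus strand: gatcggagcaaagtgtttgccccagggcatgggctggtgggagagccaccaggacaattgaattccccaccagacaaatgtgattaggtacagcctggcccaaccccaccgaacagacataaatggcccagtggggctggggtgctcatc
The motifs were the cyclic AMP response element TGACGTCA, the AP-1 site TGANTCA and the TATA box TATAAA, which do not overlap in these windows. Both strands were searched in the 250 bases before and 50 bases after each start. Th held the cyclic AMP response element at -69 to -62 and an AP-1 site at -230 to -224 from its start. Prph held TATAAA at -35 to -30, and Uchl1 held it on the opposite strand at -29 to -24. Dbh matched none of the 3. Of 33469 promoter windows of the same length, 1.83% held TGACGTCA, 7.33% TGANTCA and 14.2% TATAAA. These matches describe the letters only.

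Before the comparisons, the level of these transcripts and 1 array need description. Across the 31042 probe sets the median level was 5.46 and the lower quartile 3.93. Prph (mean 6.43 over the 12 arrays), Gap43 (5.93) and Dbh (5.47) lay above the median, and Th (4.52) lay between the quartile and the median. Uchl1 (3.69), Stmn2 (3.60 and 3.36), Snap25 (3.49), Nefm (3.45), Nefl (3.19 and 3.16) and the second Gap43 probe set (2.60) lay under the lower quartile, where array values are close to background and differences are compressed. Replicate 3 of the left atrium shunt group was unlike its partners. Its mean correlation with them was 0.989, where no other array was under 0.992 with its own group, and on the second principal component (9.76% of the variance) it lay at -26.70 against 14.95 and 13.62. Member values that use it are given with and without it.

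Other genes of nerve tissue were checked. Of 100 measured genes in 8 lists of neuronal, nerve and glial genes, 35 had a mean level above the median of all probe sets and 30 lay under the lower quartile. Phox2a, a transcription factor that specifies autonomic neurons, had a mean of 4.04. The cholinergic genes Chat and Slc18a3, which encode the enzyme that makes acetylcholine and its vesicular transporter, had means of 3.98 and 4.41. Npy, the neuropeptide of sympathetic neurons, had a mean of 7.66. Nppa, the atrial natriuretic peptide of atrial muscle, lay at 14.37 to 14.43 on the 12 arrays.

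Prph (probe set 1368028_at) rose in both atria, and it was the only 1 of the 9 genes called in the right. In the right atrium it lay at 6.07, 6.16 and 6.14 on the sham arrays and at 6.94, 6.76 and 6.70 on the shunt arrays. Left atrial values were 5.79, 5.97 and 5.99 on the sham arrays and 6.65, 7.09 and 6.93 on the shunt arrays. All shunt arrays were above all sham arrays of both atria. The rise was 0.67 ± 0.11 on the log2 scale in the right atrium (SE, n = 3 pools per group, limma adjusted p = 0.0089), or 1.6-fold, and 0.97 ± 0.11 in the left (adjusted p = 0.00174), or 1.96-fold. Without left atrium shunt replicate 3 the left atrial rise was 0.95 (adjusted p = 0.00209). In a fit of the left atrial arrays alone its adjusted p was 0.0663, against 0.00462 for the right atrial arrays alone. The left minus right difference of the shunt effects was 0.30 ± 0.15 (adjusted p = 0.389), and 0.28 without replicate 3.

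The right atrium shunt arrays differed in ventricular markers. Myl2, the ventricular myosin light chain, lay at 11.45 on replicate 1 and at 12.83 and 12.82 on replicates 2 and 3, against 10.90 to 11.00 on the sham arrays. In the shunt group 4 of the 6 ventricular markers were called higher, against 2.83% of all genes. The mean level of these 6 markers was 9.16 to 10.11 on the shunt and 8.70 to 8.85 on the sham arrays. Prph was highest on replicate 1. A fit that kept replicate 1 alone in this group, tried only once the data had been seen, gave a difference of 0.81 for Prph (adjusted p = 0.118, with the lone array assumed to vary like the other groups). In the left atrium the mean of the 6 markers lay at 7.58 to 7.93 on the shunt and 7.04 to 7.32 on the sham arrays. The median difference was 0.51 and 1 of 6 was called higher, against 0.373% of all genes. The mean of 7 macrophage markers lay at 7.11 to 7.17 on the right shunt and 6.58 to 6.71 on the right sham arrays. Of these 2 were called higher, or 6 without left atrium shunt replicate 3, against 2.83% and 4.54% of all genes. The part of these tissues and cells in the neuronal values was not tested.

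Uchl1 (probe set 1369977_at) rose in the left atrium and did not pass in the right. It lay at 3.39, 3.74 and 3.47 on the left sham arrays and at 4.03, 4.10 and 4.63 on the left shunt arrays, so the groups did not overlap, and replicate 3 of the shunt group was highest. The difference was 0.72 ± 0.14 (limma adjusted p = 0.0403) and 0.53 (adjusted p = 0.0273) without that array. The call was lost on leaving out any 1 of the 6 right atrial arrays, any 1 left sham array or left shunt replicate 2, and also in a fit of the left atrial arrays alone (adjusted p = 0.264). On the right, Uchl1 lay at 3.35, 3.45 and 3.51 on sham and at 3.67, 3.45 and 3.54 on shunt arrays, which overlapped, with a difference of 0.11 ± 0.14 (95% interval -0.20 to 0.42, adjusted p = 0.723). The left minus right difference of the 2 shunt effects was 0.61 ± 0.20 and did not pass (limma adjusted p = 0.229), and it was 0.42 without replicate 3.

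**Figure D1:**
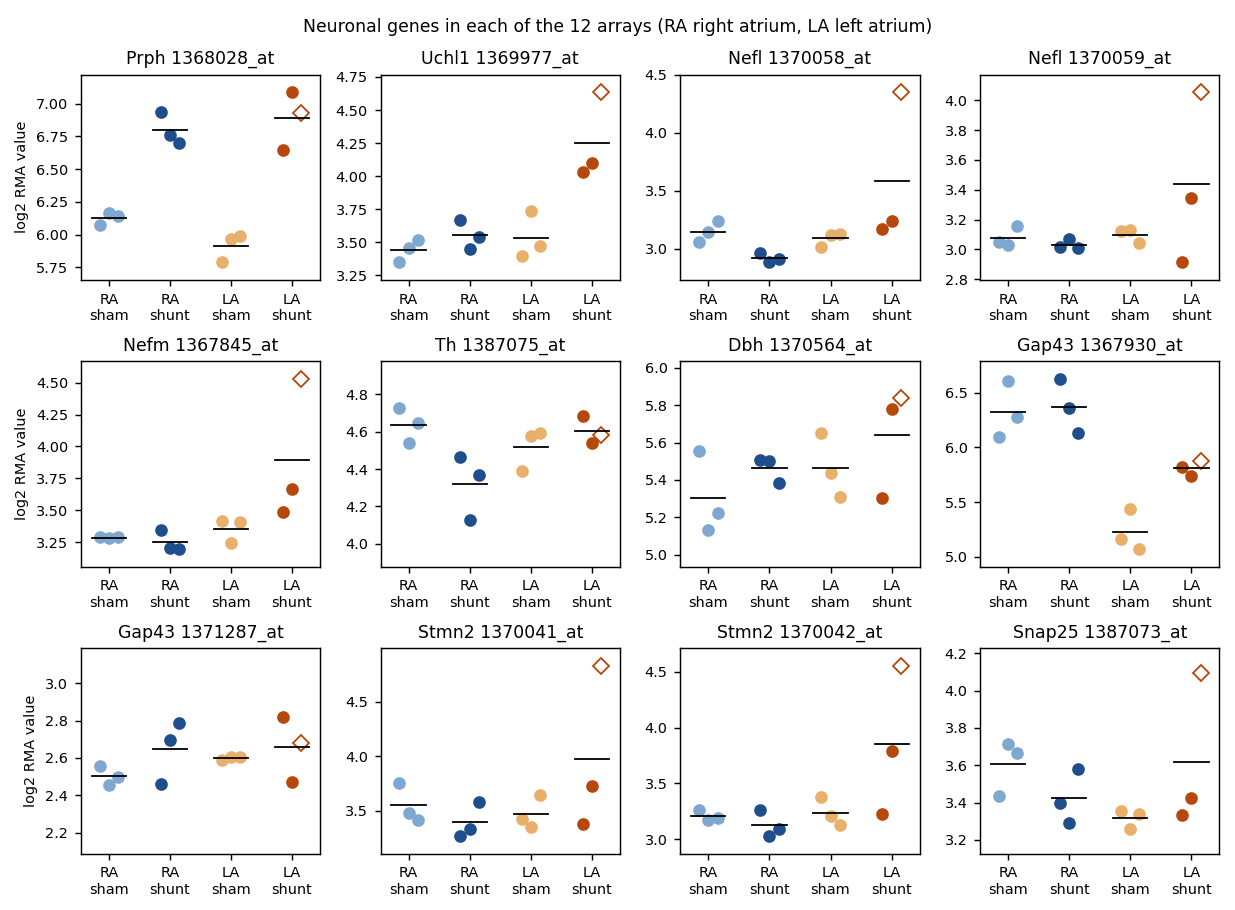
Log2 RMA values (y axis, scaled per panel) of the 12 probe sets in right (RA) and left (LA) atrium, sham and shunt, with 1 point per array and a line at each group mean. The open diamond is left atrium shunt replicate 3. Prph is higher on all shunt arrays of both atria, between 6.65 and 7.09, than on any sham array, while Nefl, Nefm, Stmn2 and Snap25 are raised mainly on the open diamond.

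The neurofilament genes showed no called change after the shunt. Nefl (probe set 1370058_at) lay at 3.02, 3.12 and 3.13 on the left sham arrays and at 3.17, 3.24 and 4.35 on the left shunt arrays. The left shunt arrays were all higher, and 1 of them stood more than 2-fold above every other array of the series. The difference was 0.50 ± 0.23 (limma adjusted p = 0.361) and 0.12 without replicate 3. On the right, the same probe set lay at 3.06, 3.15 and 3.24 on sham and at 2.96, 2.89 and 2.91 on shunt arrays, all lower, with a difference of -0.23 ± 0.23 (adjusted p = 0.627). The second Nefl probe set, 1370059_at, lay at 2.91, 3.34 and 4.05 on the left shunt arrays against 3.04 to 3.13 in left sham, which overlapped, with a difference of 0.34 ± 0.20 (adjusted p = 0.491) that was 0.03 without replicate 3. Nefm (1367845_at) lay at 3.48, 3.67 and 4.53 on the left shunt arrays, all above the left sham arrays at 3.42, 3.24 and 3.41. Its difference was 0.54 ± 0.19 (adjusted p = 0.243) and 0.22 without replicate 3.

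None of the members of axon growth and of the synapse (Gap43, Stmn2 and Snap25) passed after the shunt. Gap43 (probe set 1367930_at) lay at 5.16, 5.44 and 5.07 on the left sham arrays and at 5.82, 5.74 and 5.88 on the left shunt arrays. These groups did not overlap, and replicate 3 was close to the other shunt arrays. The difference of 0.59 ± 0.15 missed the threshold (limma adjusted p = 0.0921; 0.118 without replicate 3, difference 0.56). Right atrial shunt arrays of this probe set, at 6.62, 6.36 and 6.13, overlapped the sham arrays at 6.10, 6.61 and 6.28. The right atrial difference was 0.05 ± 0.15 (95% interval -0.27 to 0.36). The left minus right difference of the shunt effects was 0.54 ± 0.21 (adjusted p = 0.272), and 0.51 without replicate 3. The second probe set, 1371287_at, was among the dimmest of the array, at 2.45 to 2.82.

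Stmn2 (probe set 1370041_at) lay at 3.38, 3.72 and 4.83 on the left shunt arrays and at 3.43, 3.35 and 3.65 on the left sham arrays. The groups overlapped and only replicate 3 was clearly higher, with a difference of 0.50 ± 0.27 (limma adjusted p = 0.449) that was 0.08 without that array. The other Stmn2 probe set, 1370042_at, lay at 3.22, 3.79 and 4.55 against 3.38, 3.20 and 3.13, a difference of 0.62 ± 0.23 (adjusted p = 0.263) and 0.27 without replicate 3. It passed without left atrium shunt replicate 1 (difference 0.93, adjusted p = 0.0417). Snap25 (1387073_at) lay at 3.33, 3.42 and 4.10 on the left shunt arrays against 3.36, 3.26 and 3.34 on the sham arrays, a difference of 0.30 ± 0.16 (adjusted p = 0.451) and 0.06 without replicate 3. Right atrial differences were -0.15, -0.08 and -0.18 for the 2 Stmn2 probe sets and Snap25, and none passed.

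Neither catecholamine enzyme passed after the shunt. Th (1387075_at) lay at 4.73, 4.54 and 4.64 on the right sham arrays and at 4.47, 4.13 and 4.37 on the right shunt arrays. All shunt arrays were below all sham arrays, with a difference of -0.32 ± 0.10 that missed the threshold (limma adjusted p = 0.0967; unadjusted p = 0.00641). On the left, Th lay at 4.39, 4.58 and 4.59 on sham and at 4.69, 4.54 and 4.58 on shunt arrays, which overlapped (0.08 ± 0.10, adjusted p = 0.758; 0.09 without replicate 3). The left minus right difference of the shunt effects on Th was 0.40 ± 0.14 (adjusted p = 0.235), and 0.41 without replicate 3. Dbh (1370564_at) lay at 5.56, 5.13 and 5.22 on right sham and 5.51, 5.50 and 5.38 on right shunt arrays, and at 5.65, 5.43 and 5.31 on left sham and 5.30, 5.78 and 5.84 on left shunt arrays. Both pairs of groups overlapped, with differences of 0.16 ± 0.15 in the right (95% interval -0.16 to 0.48) and 0.18 ± 0.15 in the left atrium (95% interval -0.14 to 0.49), the latter 0.08 without replicate 3.

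**Figure D2:**
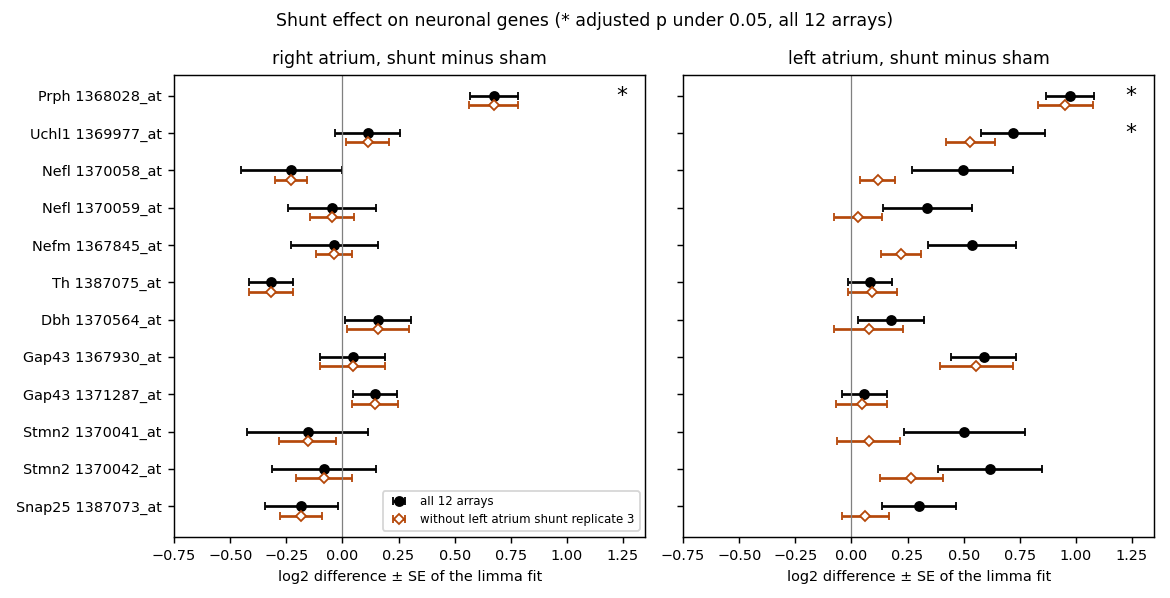
Log2 difference between shunt and sham arrays (x axis) of each of the 12 probe sets in the right and left atrium, with the SE of the limma fit as bars. Filled points use all 12 arrays and open diamonds leave out left atrium shunt replicate 3. Prph is at 0.67 and 0.97, and most other left atrial differences move toward 0 without that array, as for Stmn2 from 0.50 to 0.08.

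Counted over the 12 probe sets, 1 rose in the right atrium (Prph), against 1.90% of all 31042 probe sets called higher there, and none fell, against 1.07% called lower; 2 had an unadjusted p under 0.05, against 19.7% of all probe sets. In the left atrium 2 rose (Prph and Uchl1), against 0.283% of all probe sets, and none fell, against 0.467%; 6 had an unadjusted p under 0.05, against 13.6%. The arrays did not overlap for 3 of 12 probe sets in the right atrium, 1 higher (14.9% of all probe sets) and 2 lower (13.5%). They did not overlap for 5 in the left atrium, all higher (7.69% of all probe sets) and none lower (9.21%). The median difference of the 12 was -0.04 in the right and 0.50 in the left atrium, where the medians over all probe sets were -0.0028 and -0.0013. Without left atrium shunt replicate 3 the left atrial median was 0.10, and the same number, 2 probe sets, passed, against 0.931% of all probe sets called higher. For the left minus right difference of the shunt effects, limma called none of the 12, against 0.0258% of all probe sets called. An unadjusted p under 0.05 was reached by 4 (Uchl1, 1 Nefl probe set, Th and 1 Gap43 probe set), against 14.4% of all probe sets.

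Left atrium shunt replicate 3 carried the highest level of the series for 8 of the 12 probe sets: Uchl1, both of Nefl, Nefm, Dbh, both of Stmn2, and Snap25. Among all probe sets, 12.1% had their highest value on this array. For 7 of the 12 the array lay at least 0.5 above the mean of the other 2 arrays of its group, against 3.56% of all probe sets, and no other array did so for any of the 12. The excess was 1.28 and 1.05 for Stmn2, 1.14 and 0.92 for Nefl, 0.95 for Nefm, 0.72 for Snap25 and 0.57 for Uchl1. It was 0.30 for Dbh, 0.10 for Gap43 (1367930_at), 0.06 for Prph and -0.03 for Th. Prph and Th on this array lay between the other 2 arrays.

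**Figure D3:**
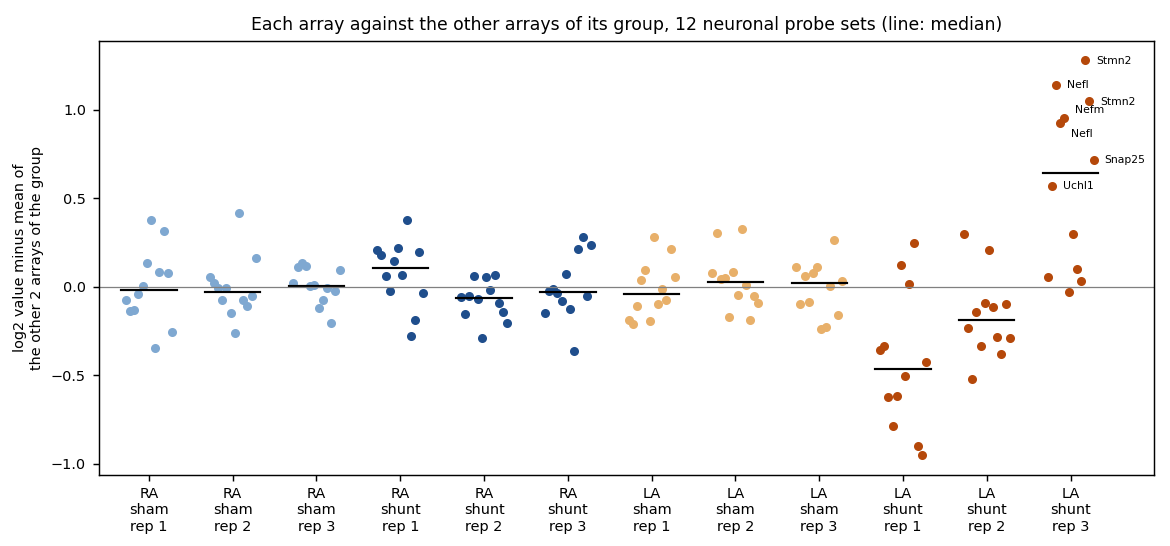
For each of the 12 arrays (x axis), the log2 value of each of the 12 probe sets minus the mean of the other 2 arrays of the same group (y axis), with a line at the median. The median is 0.64 on left atrium shunt replicate 3 and between -0.06 and 0.11 on the 9 arrays of the other groups; the low values of left atrium shunt replicates 1 and 2 include replicate 3 in their reference.

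Some other neuronal genes were highest on that array, as were 11.5% of all genes. These were 3 of 10 transmitter, 2 of 13 autonomic, 4 of 16 cytoskeletal and 4 of 19 synaptic and granule genes. None of the 11 neuropeptides, 9 trophic and guidance genes, 10 growth-associated regulators or 13 glial genes was highest there. The genes named next were picked for lying at least 0.5 above the mean of the other 2 left shunt arrays, as did 1.70% of all genes. Sncg, a synuclein of peripheral neurons, lay at 7.51 there against 6.41 and 7.01 on the other left shunt arrays, and Slc6a2, the noradrenaline transporter, at 4.81 against 4.01 and 4.19. Scg3, a secretory granule protein, lay at 4.12 against 3.60 and 3.44, and Stmn3, a relative of Stmn2, at 5.29 against 4.80 and 4.72. Of the 16 measured cytoskeletal and RNA-binding genes of neurons 7 lay above both other arrays and 6 below both, with a median excess of 0.04, and of the 19 synaptic and granule genes 12 lay above and 2 below, with a median of 0.12. Over all 14217 genes 5210 (36.6%) lay above both and 5357 lay below both. Of the 10 transmitter genes 6 lay above and 2 below both, and of the 13 genes of autonomic identity and receptors 5 lay above and 5 below, with medians of 0.08 and -0.0065. Of the 10 growth-associated regulators 1 lay above and 6 below both, with a median of -0.23, and of the 9 trophic and guidance genes 2 lay above and 5 below. Of the 13 glial genes 2 lay above and 6 below both, with a median of -0.12, and of the 11 neuropeptides 1 lay above and 6 below.

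Some fat genes were also high on this array. Ucp1, the uncoupling protein that defines brown fat, lay at 7.56 against 4.22 and 4.66 on the other left shunt arrays and 3.87 to 4.40 on all remaining arrays. Plin1, the lipid droplet coat of adipocytes, lay at 5.89 against 4.34 and 4.89, and Adipoq (adiponectin) at 6.09 against 4.85 and 5.85. Of 7 brown adipocyte markers 6 lay above both other arrays and of 7 white adipocyte markers 5, against 36.6% of all genes. Above all other arrays of the series lay 1 brown and 4 white markers, against 11.5% of all genes. The mean level of the brown markers was 7.36 to 8.04 in left shunt, 7.30 to 7.51 in left sham, 7.32 to 7.38 in right shunt and 7.30 to 7.36 in right sham. That of the white markers was 6.75 to 7.59, 6.90 to 7.27, 6.86 to 6.90 and 6.97 to 7.18 in the same order. In contrast all 7 macrophage, all 6 fibroblast and all 5 mesothelial markers lay below both other arrays, against 5357 of all 14217 genes. The part of these tissues in the neuronal values was not tested.

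Left and right atria differed in the brighter Gap43 probe set, 1367930_at, before any overload. On sham arrays it was lower in the left atrium by a log2 difference of -1.10 ± 0.15 (limma adjusted p = 9.86e-05), or 2.15-fold, and after the shunt by -0.56 ± 0.15 (adjusted p = 0.00971), or -0.59 (adjusted p = 0.0136) without left atrium shunt replicate 3. No left array reached the lowest right array of the same operation. The dim second probe set, 1371287_at, did not show this. It differed by 0.10 in sham (limma adjusted p = 0.489) and by 0.01 after the shunt (adjusted p = 0.956). As the mean of both probe sets the sham difference was -0.50 and still passed. In sham, 1367930_at was the only 1 of the 12 probe sets called, where 16.1% of all probe sets were called lower and 20.1% higher in the left. Snap25 differed by -0.29 ± 0.16 (limma adjusted p = 0.19) and passed without left atrium shunt replicate 3 (adjusted p = 0.027).

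After the shunt, 5 of the 12 were higher in the left atrium, against 20.2% of all probe sets, and 1 (Gap43) was lower, against 17.4%. This comparison shares its arrays with the shunt comparisons, so the values stand side by side and not as separate evidence. Uchl1 differed by 0.70 ± 0.14 (limma adjusted p = 0.00226) and by 0.51 without left atrium shunt replicate 3 (adjusted p = 0.00282). Nefl (1370058_at) differed by 0.67 ± 0.23 (adjusted p = 0.0341) and Nefm by 0.64 ± 0.19 (adjusted p = 0.0206), and both were smaller without that array, at 0.29 (adjusted p = 0.0146) and 0.33 (adjusted p = 0.0131). Stmn2 (1370042_at) differed by 0.73 ± 0.23 (adjusted p = 0.0261), but by 0.38 (adjusted p = 0.0504) without it, and its arrays overlapped. The other probe sets of these genes did not pass. Stmn2 (1370041_at) differed by 0.58 (limma adjusted p = 0.109) and Nefl (1370059_at) by 0.41 (adjusted p = 0.125), or by 0.15 and 0.10 without that array. Th differed by 0.28 ± 0.10 (adjusted p = 0.0355), and by 0.29 (adjusted p = 0.0538) without it. Without that array 3 of the 12 were higher, against 18.6% of all probe sets, and 1 was lower, against 17.6%. Of the 6, Uchl1 and Gap43 passed in all alternatives that tested them. The other 4 did not pass in a fit of the shunt arrays alone or without right atrium shunt replicates 2 or 3, Nefl not without right atrium shunt replicate 1 either, and Th not without left atrium shunt replicate 1.

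**Figure D4:**
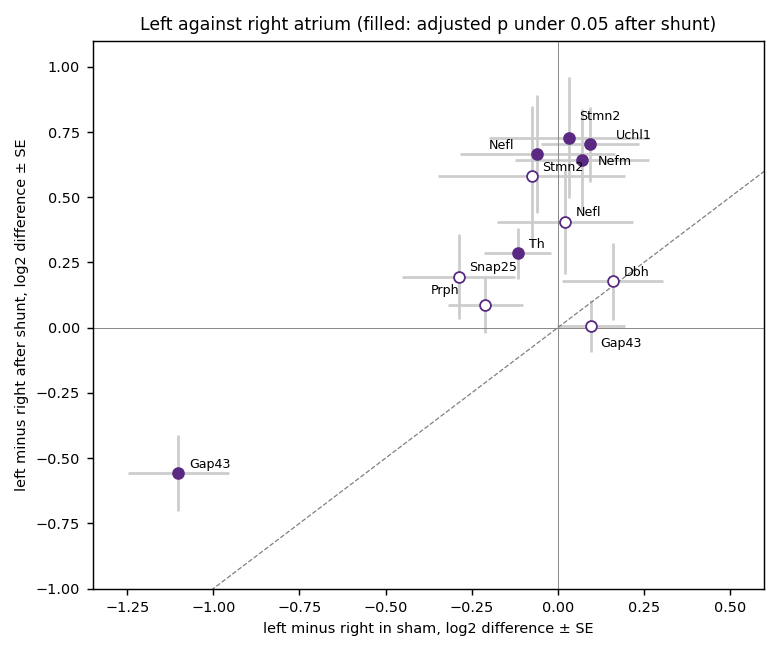
Left minus right log2 difference in sham animals (x axis) against that after the shunt (y axis) for the 12 probe sets, with the SE of the limma fit as grey bars and the dashed line at equal differences. Gap43 probe set 1367930_at is lower in the left atrium in both, at -1.10 and -0.56. The 5 probe sets near 0 in sham with an adjusted p under 0.05 after the shunt lie between 0.28 and 0.73 there.

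Among the 100 measured genes of the wider lists, 3 rose and 3 fell after the shunt in the right atrium, against 2.83% and 1.14% of all genes. Without left atrium shunt replicate 3, which shares the estimate of spread, 7 rose and 5 fell, against 4.54% and 2.04%. Npy lay at 8.05, 7.64 and 8.01 on the right sham arrays and at 7.62, 6.99 and 7.06 on the right shunt arrays, which did not overlap. It fell by 0.68 ± 0.15 on the log2 scale (limma adjusted p = 0.0347). Its call was lost on leaving out replicate 2 or 3 of the right shunt group, replicate 1 or 3 of the right sham group or replicate 3 of the left sham group, and in a fit of the right atrial arrays alone (adjusted p = 0.0526). With replicate 1 kept alone in the right shunt group the difference was -0.28. Left atrial Npy values did not overlap either, at 7.48, 7.60 and 7.55 on sham and 8.05, 7.90 and 7.92 on shunt arrays, with a difference of 0.42 (adjusted p = 0.244). The left minus right difference of these effects was 1.09 and did not pass (adjusted p = 0.125). Without left atrium shunt replicate 3 these were 0.43 and 1.11 and did not pass.

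Of 9 trophic and guidance genes 1 rose, 1 fell and 7 did not pass in the right atrium. Bdnf, a neurotrophin, rose by 0.75 ± 0.13 (limma adjusted p = 0.0137), from 5.41 to 5.86 on the sham arrays to 6.30 to 6.59 on the shunt arrays. Ntf3, another neurotrophin, fell by 0.48 ± 0.10 (adjusted p = 0.0324), from 7.77 to 7.89 to 7.28 to 7.37. Gfra2, the neurturin co-receptor, fell by 0.34 (adjusted p = 0.0491), while Basp1, a growth cone protein, rose by 0.52 (adjusted p = 0.0369) and Vamp1, a synaptobrevin, by 0.44 (adjusted p = 0.0329). Bdnf was not called without right shunt replicate 2 or right sham replicates 2 or 3. Ntf3, Vamp1 and Gfra2 did not pass without any 1 of the 6 right atrial arrays, nor Gfra2 without any left atrium sham array, and Basp1 not without right shunt replicates 1 or 2, any right sham array or left sham replicates 1 or 3, nor with replicate number as a block. As the mean of their probe sets Gfra2 (-0.14), Vamp1 (0.11) and Basp1 (0.23) did not pass. For the left atrium limma called none of the 100 genes higher or lower, against 0.373% and 0.563% of all genes, with 13 at an unadjusted p under 0.05 against 14.7% of all genes. It called none for the difference of the shunt effects either, with 21 at an unadjusted p under 0.05 against 14.5% of all genes.

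By list, the counts after the shunt in the right atrium were 0 of 10 for transmitter synthesis and transport, 1 of 13 lower for autonomic identity and receptors (Gfra2) and 0 of 16 for the neuronal cytoskeleton. They were 1 of 19 higher for synaptic and granule genes (Vamp1), 1 of 11 lower for neuropeptides (Npy), 1 of 9 higher and 1 lower for trophic and guidance signals (Bdnf, Ntf3), 1 of 10 higher for growth-associated regulators (Basp1) and 0 of 13 for glia. Their medians lay between -0.13 and 0.10, against 0.02 over all genes. Left atrial medians lay between -0.08 and 0.09, against -0.0051. Without left atrium shunt replicate 3, Ntf3 fell on the left by 0.47 (limma adjusted p = 0.0235), while Nrg1, a growth factor for Schwann cells and heart muscle, rose by 0.94 (adjusted p = 0.0455) and the myelin gene Pmp22 by 0.36 (adjusted p = 0.0447). These 2 higher and 1 lower of 100 stand against 1.33% and 1.03% of all genes.

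The genes whose levels most resembled those of 4 members over the 12 arrays were ranked by Pearson r, among 5572 genes (5573 for Th) with an SD of at least 0.2. These are descriptions, since the arrays share group differences and 1 array with extreme values. For Prph they were Synpo2l (r = 0.96), Fbxl22 (0.92), Nppb (0.91), Tspan4 (0.91) and Ccdc3 (0.90), and without left atrium shunt replicate 3 the values were 0.91 to 0.96. For Uchl1 they were Tpm2 (0.95), Apbb3 (0.94), Dmbt1 (0.91), Apod (0.89) and Aopep (0.89), with 0.69 to 0.88 without that array. For Nefl they were Ucp1 (0.96), Nefm (0.95), Plin1 (0.93), Mss51 (0.92) and Stmn2 (0.91), and without that array these were 0.52, 0.57, 0.81, 0.09 and 0.28. For Th they were Npy (0.90), Slc38a5 (0.84), Ptprn (0.83), Pnldc1 (0.80) and a probe set annotated to Mir351 (0.80), with 0.79 to 0.90 without it. The pair Prph and Nefl had an r of 0.27, which was -0.19 without that array, and Th and Dbh had -0.14, which was -0.24 without it.

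**Figure D5:**
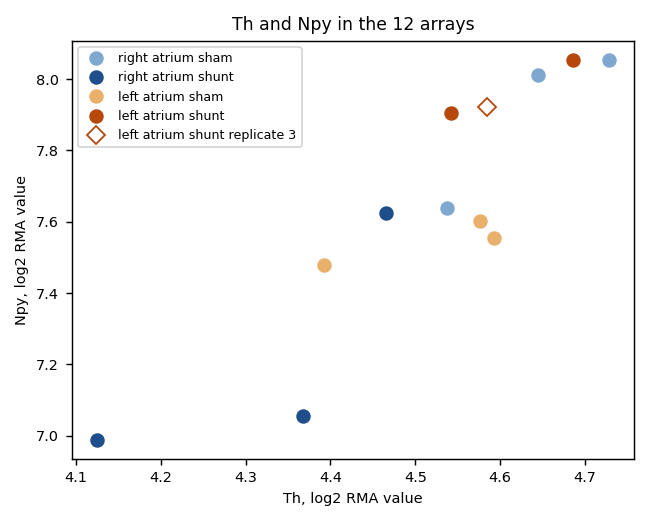
Log2 RMA values of Th (x axis) and Npy (y axis) on each of the 12 arrays, coloured by group, with left atrium shunt replicate 3 as an open diamond. 2 of the 3 right atrium shunt arrays hold the lowest Npy values, 6.99 and 7.06, together with the lowest Th values, 4.13 and 4.37, and the diamond lies among the other left atrium shunt arrays.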

How the data were processed

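For 12 arrays the authors deposited 1 log2 value per probe set. The submitters' processing notes name RMA, a method of background correction, quantile normalization and probe set summary, and its version is not given in the sources used here. Array medians lay between 5.44 and 5.47. Values were used as deposited, without the platform's 57 controls and with no filter. The annotation named 1 gene for 20826 of 31042 probe sets, several for 436 and none for 9780, with symbols updated through gene identifiers.

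Groups came from sample titles. All probe sets on the 12 arrays were fitted in limma 3.58.1 under R 4.3.3 (lmFit, contrasts.fit, eBayes) with a mean for each group and a common spread. Tests were two-sided, p-values were Benjamini-Hochberg adjusted over 31042 probe sets, and called means an adjusted p under 0.05. Where 1 probe set had to stand for a gene, the brightest on average was used. The members and lists were chosen with earlier results of these data known. Named genes were all members, list genes past the threshold, and the 5 genes most like each of 4 members. p-values measure only the spread between pools. The fit was tested on simulated data. Alternatives to the filter, scaling, model, samples and probe set rule were tried. The number of arrays limits precision.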

Additional observations from a re-analysis of the deposited data

Results flagged for a closer look

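The dim Nefl probe set 1370058_at had shunt differences of opposite sign in the 2 atria, and neither passed. Every right shunt array lay below every right sham array, as for 13.5% of all probe sets. Every left shunt array lay above every left sham array, as for 7.69%. The left minus right difference of the shunt effects was 0.73 ± 0.32 on the log2 scale (limma adjusted p = 0.328). Without left atrium shunt replicate 3 it was 0.34 (adjusted p = 0.216), so the test of the difference did not pass. The arrays of the second Nefl probe set, 1370059_at, overlapped in both atria.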

How the results depend on the processing

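Of the 60 member values (12 probe sets in 5 comparisons) 10 were called. Alternatives dropped dim probe sets, repeated quantile normalization, subtracted array medians, set trend and robust in eBayes, weighted arrays, fitted the compared groups alone, blocked on replicate number, averaged a gene's probe sets or left out each array. One, added after seeing the data, kept replicate 1 alone in the right shunt group. Of the 10 calls, 3 passed in all alternatives that tested them: Gap43 left minus right in sham and after shunt, and Uchl1 left minus right after shunt. Nefl left minus right after shunt did not pass with trend and robust options or as the mean of its probe sets, nor Th with trend and robust options or after quantile normalization again. None of the 10 changed direction.

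The number of members called in the right atrium was 1, and 0 with replicate 1 alone in the shunt group. In the left atrium it was 2, against 1 without dim probe sets, which dropped Uchl1 from testing, 0 in the fit of only the groups compared, and 1 to 3 over exclusions of 1 array. Left minus right in sham it was 1, against 2 in that fit and 1 to 2 over exclusions. Left minus right after shunt it was 6, against 1 without dim probe sets, 2 in that fit and 2 to 7 over exclusions. For the difference of effects it was 0 throughout. Other causes were not tested.

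Over all probe sets, the 923 right atrial calls were 2352 with array weights, 1415 in the fit of the right arrays alone, 19 with replicate 1 alone in the shunt group and 148 to 1631 over exclusions. The 233 left atrial calls were 453 without dim probe sets, 485 with trend and robust options, 370 with array weights, 13 in the fit of the left arrays alone and 77 to 554 over exclusions. The 8 calls for the difference of the shunt effects were 0 to 21 over exclusions and 3 to 19 otherwise.

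The labels do not say what a replicate number marks. Deviations of same-numbered arrays correlated between -0.10 and 0.15, with 3 of 18 pairs over 0.1, and 5 of 12 arrays matched their own number best. All 6 same-numbered left-right pairs of the same operation were positive (0.079 to 0.15, 3 over 0.1), a hint of possible pairing. Deviations sum to 0 per group, so the 12 others, all negative, add nothing. With the replicate block the member counts were 1, 2, 0, 1 and 6 for right atrium, left atrium, difference of effects, left minus right in sham and after shunt. With a replicate block within each operation, left against right, added after seeing the data, the last 3 member counts were 0, 1 and 7. All members called without the block passed, and Stmn2 (1370041_at) after shunt passed as well (0.58, adjusted p = 0.0413).

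Sign changes touched 14 uncalled values near 0. After quantile normalization again Nefm in the right atrium was 0.0081 and Gap43 (1367930_at) there -0.0073, the latter -0.0006 with array weights. With replicate 1 alone in the right shunt group Nefm was 0.063, Gap43 (1371287_at) -0.041 and Stmn2 (1370042_at) 0.050. For Dbh the difference of the shunt effects was -0.0044 with medians subtracted and -0.014 with array weights. Gap43 (1371287_at) left minus right after shunt was -0.0004 after quantile normalization, -0.0012 with medians subtracted and -0.040 with array weights. Over exclusions of 1 array the ranges were -0.080 to 0.18 for Gap43 (1367930_at) in the right atrium, -0.025 to 0.15 for Gap43 (1371287_at) in the left, and, for the difference of the effects, -0.11 to 0.19 for Dbh and -0.18 to 0.0059 for Gap43 (1371287_at). Left minus right in sham they were -0.0071 to 0.16 for Uchl1, -0.0032 to 0.060 for Nefl (1370059_at), and -0.16 to 0.028 and -0.039 to 0.085 for Stmn2 (1370041_at and 1370042_at). After shunt they were -0.011 to 0.21 for Prph, -0.085 to 0.10 for Gap43 (1371287_at) and -0.043 to 0.34 for Snap25. Low signal limits Nefl, Nefm, Stmn2, Snap25 and Uchl1.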

Other observations

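Genes that guide and support axons differed between the atria in sham animals. Of 9 measured trophic and guidance genes 5 were higher in the left than the right atrium and 1 was lower, against 22.2% and 15.4% of all genes. The chemorepellent Sema3a was higher by 1.01 ± 0.16 (SE, n = 3 pools per group, limma adjusted p = 0.000425), Sema3c, its relative, by 0.99 ± 0.12 (adjusted p = 5.35e-05) and the axon guidance cue Ntn1 by 0.80 ± 0.09 (adjusted p = 3.23e-05). Nrg1 was higher by 1.08 ± 0.27 (adjusted p = 0.00782) and Bdnf by 0.72, while Ntf3 was lower (-0.41). After the shunt Sema3a, Sema3c, Ntn1 and Nrg1 were still higher in the left atrium, with or without left atrium shunt replicate 3, and Bdnf differed by -0.11, or -0.22 without that array.

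Over the 100 nerve-related list genes 23 were higher and 9 lower in the left atrium in sham, against 22.2% and 15.4% of all genes. After the shunt 28 were higher and 8 lower, against 21.0% and 19.4% of all genes. Without left atrium shunt replicate 3 these were 28 and 5, against 19.2% and 18.2%. In sham, Hand2, a transcription factor of sympathetic neurons and of the heart, was higher in the left atrium by 0.69 ± 0.08 (limma adjusted p = 2.92e-05). Gfra3, the co-receptor for artemin, was lower (-0.72, adjusted p = 2.2e-05), as was Ddc (-0.60, adjusted p = 8.89e-05), the decarboxylase that follows Th. The injury-response factor Atf3 lay at 7.29, 5.69 and 4.66 on the left and 3.88 to 3.89 on the right sham arrays, a difference of 2.00 (adjusted p = 0.00338), and differed by -0.13 after the shunt, or -0.08 without left atrium shunt replicate 3.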
